A study of Mus musculus with 4 samples.

Results

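The mRNAs described here encode the Aurora kinases, the proteins that switch on Aurora-A, and the chromosomal passenger complex. The 10 genes were chosen by name, for what their proteins do, out of 51905 genes in the deposited tables. Earlier results of these data were known when the 10 genes were chosen. They are the kinases Aurka, Aurkb and Aurkc, the Aurora-A activators Tpx2, Bora, Plk1 and Cep192, and the passenger subunits Incenp, Birc5 and Cdca8. Each of the 10 symbols matched 1 row, and 9 of the 10 genes passed a filter of at least 10 counts on average in each cell line. Aurkc did not pass it.

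RNA was sequenced from CT26 and MC38, mouse colorectal cancer cell lines of wild-type genotype, 48 h after seeding. Cells of each line carried lenti-shGFP, a lentivirus with a short hairpin RNA against GFP that served as the control, or lenti-shmaurka-1, which targets the mRNA of mouse Aurora-A. Every library thus came from cells that had been infected with lentivirus and, by the study's methods, selected with puromycin, and a single hairpin stood for the knockdown. CT26 was grown in RPMI-1640 and MC38 in high glucose DMEM, so cell line and medium cannot be told apart.

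Only 1 library was made for each of the 4 conditions, and the recovered depth was between 22207768 and 23752269 fragments per library. A difference within a line therefore has no replicate behind it. Its interval, an exact conditional binomial (Clopper-Pearson) interval at the 95% level, covers counting error only and compares 2 libraries, not 2 conditions. Fold changes are on a log2 scale of counts normalized with trimmed means (TMM), with 1 count added. In the labels the CT26 cells are called fibroblast and the MC38 cells epithelial. Epcam and Cdh1, which define epithelial cells, were close to 0 in all 4 libraries, with at most 1 fragment for Epcam and at most 6 for Cdh1. Of the 10 epithelial markers on the list, 2 reached 1 FPKM in any library: Krt18, at 33.7 and 37.4 FPKM in CT26 and 0.222 and 0.264 FPKM in MC38, and Elf3, at 3.98 and 3.27 FPKM in MC38. None of 7 colon markers reached 1 FPKM in any library, and their sum was 0.387 to 0.941 FPKM. The epithelial sum was 34.7 and 38.8 FPKM in CT26 against 4.66 and 3.93 FPKM in MC38. The mesenchymal marker Vim lay between 241 and 383 FPKM (fragments scaled to transcript length and sequencing depth). Summed over 12 mesenchymal markers the level was 1853 to 1874 FPKM in CT26 and 623 to 657 FPKM in MC38. S100a4 alone was at 951 and 921 FPKM in CT26 and at 36.8 and 60.1 FPKM in MC38. Col3a1, Col6a1, Pdgfra and Lum went the other way and were higher in MC38 with either hairpin. The part of these marker levels in the results below was not tested. Ptprc, the pan-leukocyte marker, had at most 3 fragments in any library, and Cd3e, a T cell marker, had 0. Of the 7 leukocyte markers, Cd68, at 3.30 to 4.97 FPKM, and Lyz2, at 1.30 to 3.10 FPKM, were the 2 that reached 1 FPKM in any library, and the list summed to 4.84 to 8.48 FPKM.

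Aurora-A acts at centrosomes and spindle poles, where it is needed for centrosome maturation and a bipolar spindle. It is switched on by different partners at different sites: Cep192 gathers it at the centrosome, Tpx2 activates it on spindle microtubules, and Bora lets it phosphorylate Plk1 before mitotic entry. Aurora-B works as the enzyme of the chromosomal passenger complex, in which Incenp is the scaffold and Birc5 (survivin) and Cdca8 (borealin) carry the complex to centromeres and the midzone. Most of these genes are transcribed mainly in late cell cycle phases, and their mRNAs are often used as a readout of proliferation.

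Promoter sequence was at hand for 5 of the 10 genes, Aurka, Aurkc, Plk1, Birc5 and Cdca8, in RefSeq windows on GRCm38.p6 that span 250 bases before to 50 bases after the annotated start. The search was for 3 short motifs on both strands. TTTGAA and TTTAAA are forms of the CHR element found in many late cell cycle promoters, and CCAAT is the box bound by the factor NF-Y. TTTGAA was read in 3 of the 5 windows, in each case after the start and on the strand of the gene, against 1.27% of 32851 windows with the motif in the same place and 17.9% with it anywhere on either strand. The 30 bases around the match are shown for Aurka and Plk1, the target of the hairpin and a kinase that acts with it, which have the motif at a similar distance from the start. The capitals mark TTTGAA, and each sequence reads 5′ to 3′ on the strand of its gene.
Aurka, chr2:172370521-172370550, minus strand: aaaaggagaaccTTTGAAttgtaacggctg
Plk1, chr7:122159453-122159482, plus strand: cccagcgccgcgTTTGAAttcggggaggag

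The first base of TTTGAA lay 33 bases from the start in Aurka and 31 in Plk1, counting the start itself as base 1. In Cdca8, the third gene with the motif, whose stretch is not shown, it lay at base 14. These distances hold for the RefSeq start. On the minus strand the deposited Aurka locus starts at 172370535, inside the stretch shown, so the distance depends on the annotation used. CCAAT occurred in 4 of the 5 windows, against 37.4% of all windows, and TTTAAA in 3 of the 5, against 13.2%. The 60 bases just before the start are given for the 4 of these genes that passed the expression filter. Capitals mark CCAAT or, where the box lies on the opposite strand, ATTGG.
Aurka, chr2:172370571-172370630, minus strand: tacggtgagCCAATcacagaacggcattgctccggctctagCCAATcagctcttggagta
Plk1, chr7:122159375-122159434, plus strand: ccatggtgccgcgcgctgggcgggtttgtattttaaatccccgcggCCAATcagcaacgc
Cdca8, chr4:124936918-124936977, minus strand: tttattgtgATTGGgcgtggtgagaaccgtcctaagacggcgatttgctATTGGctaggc
Birc5, chr11:117849177-117849236, plus strand: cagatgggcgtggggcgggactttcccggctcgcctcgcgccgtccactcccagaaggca

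Aurka carried CCAAT in this stretch at 51 and 19 bases before the start, and Cdca8 carried it in the other orientation. The Birc5 stretch had no match, which says only that these letters are absent from it. These matches describe the sequence and do not show binding.

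Aurka (ENSMUSG00000027496, GRCm38 chr2:172356189-172370535, minus strand) was by FPKM the most abundant of the 10 mRNAs in control CT26 cells. It was much lower with the hairpin against it in both lines. The CT26 shGFP library held 5724 Aurka fragments and the CT26 shmaurka-1 library 1093, or 120.3 and 26.1 FPKM. The MC38 shGFP library held 2300 fragments and the MC38 shmaurka-1 library 413, or 40.7 and 7.61 FPKM. Both knockdown libraries were thus below both control libraries. The log2 fold change was -2.26 (95% interval -2.36 to -2.17) in CT26 and -2.44 (-2.60 to -2.29) in MC38, so that the level decreased by 79.2% in CT26 and decreased by 81.6% in MC38. Bulk RNA cannot tell fewer cells with the mRNA from less mRNA per cell. The targeted gene went in the direction of the labels in both lines, and the reduction differed between lines by 0.18 on the log2 scale, with a counting interval of 0.00 to 0.35.

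The effect of the knockdown that both lines share was tested by edgeR (quasi-likelihood, Benjamini-Hochberg adjustment) in a fit that held the cell line as a block. Of 11928 genes, 213 were called higher (1.79%) and 131 lower (1.10%). Scaling by total counts gave 157 higher and 163 lower, and DESeq2 with the same block called 20 higher and 17 lower. Aurka fell by 2.35 on the log2 scale (edgeR quasi-likelihood adjusted p = 6.9e-92). This test has 1 residual degree of freedom, and the spread was taken from the trend over all genes. Without cell line as a block no gene was called, Aurka included (edgeR adjusted p = 1.00), and 11 genes had an unadjusted p under 0.05.

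Aurkb (ENSMUSG00000020897, GRCm38 chr11:69045646-69051664, plus strand), the kinase of the passenger complex, was higher after Aurora-A knockdown in CT26 and slightly lower in MC38. The CT26 libraries held 1243 Aurkb fragments under shGFP and 2073 under shmaurka-1 (28.7 and 51.9 FPKM). The MC38 libraries held 2034 and 1803 (37.9 and 34.7 FPKM). The CT26 control library was thus the lowest of the 4 and the CT26 knockdown library the highest. The log2 fold change was 0.86 (0.76 to 0.96) in CT26 and -0.14 (-0.23 to -0.05) in MC38, a difference of 1.00 (0.87 to 1.14) that was wider than for any other of these genes.

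Aurkc (ENSMUSG00000070837, GRCm38 chr7:6995299-7003091, plus strand), the Aurora kinase best known from germ cells, was listed at 0 in both CT26 libraries and had 1 fragment in each MC38 library. All 4 values are under a floor of 3 fragments, so no fold change is given. Cdt1, a replication licensing factor, and Gins2, another S phase gene, were also listed at 0 in both CT26 libraries. In MC38, Cdt1 had 4924 and 5009 fragments and Gins2 had 724 and 689. Whether an exact 0 is a failed estimate or an absent mRNA was not tested.

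Per unit of transcript length, the kinase that made up most of the Aurora mRNA changed with the hairpin. Aurka gave 80.8% of the summed FPKM of the 3 kinases in control CT26 cells and 33.5% in those with shmaurka-1. In MC38 the share was 51.7% with shGFP and 17.97% with shmaurka-1. Aurka exceeded Aurkb 4.20-fold in control CT26 cells and 1.07-fold in control MC38 cells, and was below Aurkb in both knockdown libraries, with ratios of 0.504 and 0.219. The summed level of the 3 kinases was 149.0 and 78.0 FPKM in CT26 shGFP and shmaurka-1, against 78.6 and 42.3 FPKM in MC38. By FPKM, CT26 cells with the hairpin held about the same summed Aurora mRNA level as control MC38 cells, with Aurkb as its larger part. The direct comparison of these sums has no error estimate, and a match between lines depends on the scaling. The median log2 ratio of CT26 over MC38 over all genes with shGFP was 0.04 by FPKM with 0.1 added. It was -0.28 under scaling by total counts.

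**Figure D1:**
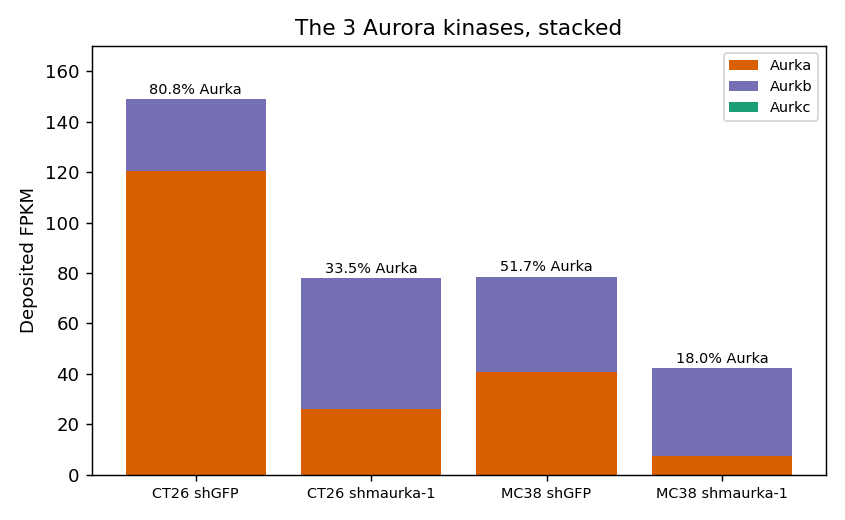
Stacked bars of the deposited FPKM of Aurka, Aurkb and Aurkc in each of the 4 libraries, 1 library per condition, with no error bars because there are no replicates. Aurka makes up 80.8% of the bar in CT26 shGFP and 17.97% in MC38 shmaurka-1, and Aurkc is too low to be seen.

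The 4 activators of Aurora-A were each above the CT26 control level in the CT26 knockdown library and stayed within 0.15 of no change on the log2 scale in MC38. The most abundant was Tpx2 (ENSMUSG00000027469, GRCm38 chr2:152847963-152895321, plus strand), which activates Aurora-A on the spindle and protects it from dephosphorylation. Tpx2 had 6577 and 9066 fragments in CT26 shGFP and shmaurka-1 and 7879 and 6944 in MC38, or 73.6, 111.9, 73.3 and 65.8 FPKM. The control libraries of the lines were nearly equal for Tpx2, whereas the knockdown libraries were the highest and the lowest of the 4. Its log2 fold change was 0.59 (0.54 to 0.63) in CT26, which sits on the 1.5-fold threshold used below, and -0.15 (-0.20 to -0.10) in MC38.

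Plk1 (ENSMUSG00000030867, GRCm38 chr7:122159438-122169873, plus strand), the mitotic kinase that Aurora-A phosphorylates and that in turn helps Aurora-A at the centrosome, had 3276 and 4675 fragments in CT26 shGFP and shmaurka-1. In MC38 it had 1840 and 1826 fragments. These correspond to 67.6 and 105.1 FPKM in CT26 and 30.6 and 31.0 FPKM in MC38. Both CT26 libraries were above both MC38 libraries. In CT26 the log2 fold change was 0.64 (0.57 to 0.70), and in MC38 it was 0.02 (-0.07 to 0.12), where the sign turned under scaling by total counts.

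Bora (ENSMUSG00000022070, GRCm38 chr14:99046426-99074537, plus strand), the cofactor through which Aurora-A reaches Plk1, was much less abundant. It had 437 and 677 fragments in CT26 shGFP and shmaurka-1 and 543 and 503 in MC38, or 9.65, 16.1, 9.85 and 9.39 FPKM. The CT26 knockdown library was the highest of the 4, and the other libraries lay close together. Its difference between arms was 0.75 on the log2 scale (0.58 to 0.93) in CT26 and -0.08 (-0.25 to 0.10) in MC38.

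Cep192 (ENSMUSG00000024542, GRCm38 chr18:67800106-67885168, plus strand), the centrosomal scaffold for Aurora-A and Plk1, had 1536 and 2085 fragments in CT26 shGFP and shmaurka-1. In MC38 it had 3011 and 3009, the least difference between arms in fragments of the 9 genes. The FPKM values were 9.90 and 14.4 in CT26 and 15.9 and 16.3 in MC38, so both CT26 libraries were below both MC38 libraries. For Cep192 the log2 fold change was 0.57 (0.47 to 0.66) in CT26 and 0.03 (-0.04 to 0.11) in MC38.

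The ratio of Aurka to its activator Tpx2, both per unit of length, was 1.63 in CT26 shGFP and 0.555 in MC38 shGFP. With the hairpin it was 0.233 in CT26 and 0.116 in MC38. Aurka mRNA thus exceeded Tpx2 mRNA only in control CT26 cells among the 4 libraries. Plk1 to Bora differed more between lines, at 7.01 and 6.54 in CT26 and 3.10 and 3.30 in MC38, than between the arms of a line.

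The 3 non-enzymatic subunits of the passenger complex had the same order of arms as Aurkb in each line. Incenp (ENSMUSG00000024660, GRCm38 chr19:9872296-9899533, minus strand), the scaffold that binds and activates Aurora-B, had 3159 and 4552 fragments in CT26 shGFP and shmaurka-1 and 6152 and 5387 in MC38. The FPKM values were 26.1, 43.3, 42.2 and 37.6 in the same order. The CT26 control library was the lowest, and the others lay within a narrow range. Knockdown over control for Incenp was 0.65 (0.59 to 0.72) on the log2 scale in CT26 and -0.16 (-0.21 to -0.10) in MC38.

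Birc5 (ENSMUSG00000017716, GRCm38 chr11:117849250-117855743, plus strand), which reads a phosphorylated histone at the centromere, had 1016 and 1583 fragments in CT26 and 1631 and 1542 in MC38, again with shGFP first. The FPKM values were 45.6, 78.8, 57.6 and 55.4. The CT26 control library was once more the lowest, and the MC38 libraries were near each other. Its log2 fold change was 0.76 (0.65 to 0.88) in CT26 and -0.05 (-0.15 to 0.05) in MC38.

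Cdca8 (ENSMUSG00000028873, GRCm38 chr4:124918464-124944656, minus strand), the borealin subunit, had 2993 and 3853 fragments in CT26 and 2307 and 2016 in MC38, or 64.0, 93.5, 41.4 and 36.8 FPKM. Both CT26 libraries were above both MC38 libraries, unlike for Incenp and Birc5. The log2 fold change was 0.49 (0.42 to 0.56) in CT26 and -0.16 (-0.25 to -0.07) in MC38. The values of Cdca8 are uncertain, because the files give it a locus shared with 9930104L06Rik on the opposite strand, which had between 613 and 1067 fragments, and whether the counting used strand is not given in the sources used here. In RefSeq GRCm38.p6 Bora also overlaps Mzt1 and Incenp overlaps the pseudogene Gm19054, although the files give neither a shared locus.

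Within the passenger complex, the levels per unit of length differed little in proportion across arms where Cdca8 was not involved. Birc5 to Aurkb was 1.59 and 1.52 in CT26 shGFP and shmaurka-1 and 1.52 and 1.60 in MC38. Aurkb to Incenp was 1.10 and 1.20 in CT26 and 0.897 and 0.923 in MC38. The ratios with Cdca8 set the lines apart and moved more across the CT26 arms: Cdca8 to Incenp was 2.45 and 2.16 in CT26 and 0.981 and 0.977 in MC38, and Cdca8 to Aurkb was 2.23 and 1.80 in CT26 and 1.09 and 1.06 in MC38. No spread over samples stands behind these ratios.

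**Figure D2:**
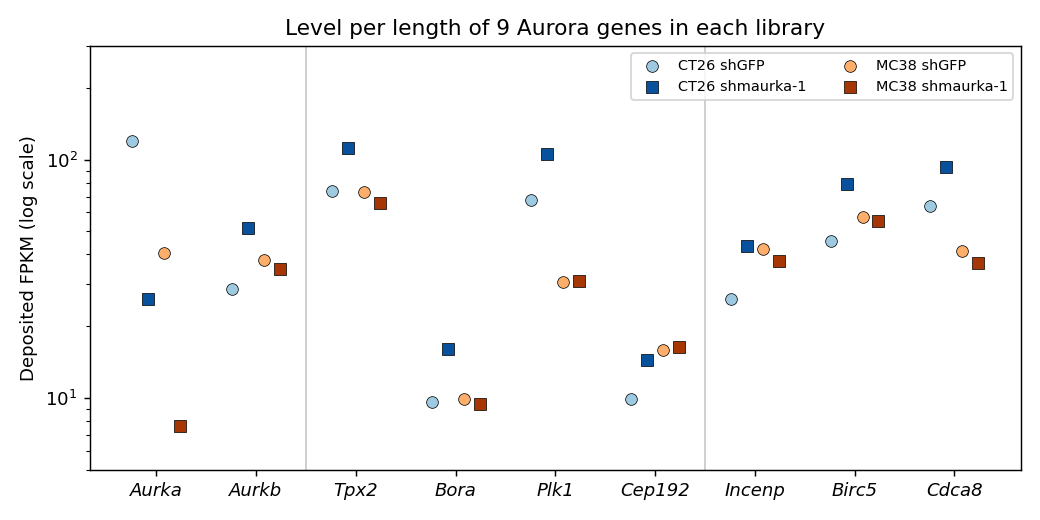
Deposited FPKM of the 9 expressed genes on a log axis, with 1 point per library and no error bars because each condition is 1 library. Aurka is low in both knockdown libraries, at 26.1 and 7.61 FPKM, and for each of the other 8 genes the CT26 shmaurka-1 point lies above the CT26 shGFP point.

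The order of FPKM levels within a library also differed. In control CT26 cells Aurka led, followed by Tpx2, Plk1, Cdca8, Birc5, Aurkb, Incenp, Cep192 and Bora. In CT26 cells with shmaurka-1 the same order held for the first 6 of the other genes, and Aurka took its place after Incenp, with Cep192 below Bora. In control MC38 cells Tpx2 led, followed by Birc5, Incenp, Cdca8, Aurka, Aurkb, Plk1, Cep192 and Bora, and with shmaurka-1 Aurka came last of the 9. Several neighbours were close, such as Cep192 and Bora at 9.90 and 9.65 FPKM in CT26 shGFP and Incenp and Cdca8 at 42.2 and 41.4 FPKM in MC38 shGFP, and with 1 library per condition their order could not be tested.

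Across the 8 genes other than Aurka, all 8 were higher with shmaurka-1 than with shGFP in CT26, with a median log2 fold change of 0.64 and a range of 0.49 to 0.86, whereas the median over all 11928 genes was 0.00. In MC38 the median of the 8 was -0.11, the range was -0.16 to 0.03, and 2 of the 8 were above 0. The study's thresholds were more than 1.5-fold for higher and less than 0.6-fold for lower, and it required them in both lines. Applied here to each line alone, 6 of the 9 expressed genes were higher in CT26, against 3.25% of all genes. Only 1, Aurka, was lower, against 2.55%. The 6 were Aurkb, Birc5, Bora, Incenp, Plk1 and Tpx2, while Cep192 at 1.48-fold and Cdca8 at 1.40-fold were under the threshold. Under scaling by total counts, and with recovered whole fragments, Tpx2 was under it as well. In MC38 none of the 9 was higher by this measure, against 2.55% of all genes, and 1, again Aurka, was lower, against 1.01%.

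**Figure D3:**
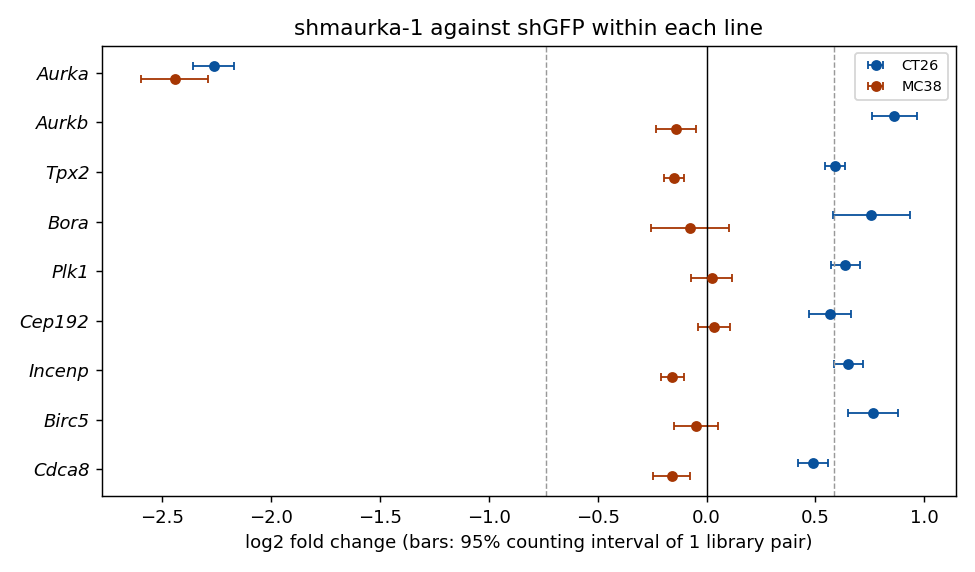
Log2 fold change of shmaurka-1 over shGFP for the 9 expressed genes in CT26 and MC38, with bars for the exact 95% counting interval and 1 library per condition. The 8 genes other than Aurka lie between 0.49 and 0.86 in CT26 and between -0.16 and 0.03 in MC38, and Aurka lies at -2.26 and -2.44.

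The log2 fold change in CT26 minus that in MC38 was above 0 for all 8 genes other than Aurka, with a median of 0.77 against 0.00 over all genes. After Aurkb, the widest differences were those of Bora at 0.83 (0.58 to 1.08), Birc5 at 0.81 (0.66 to 0.96) and Incenp at 0.81 (0.73 to 0.89). Tpx2 differed by 0.74 (0.67 to 0.80), Cdca8 by 0.65 (0.54 to 0.76) and Plk1 by 0.61 (0.50 to 0.73). The narrowest was that of Cep192, at 0.53 (0.41 to 0.65). With 1 library per condition no residual is left for an interaction term, so these intervals hold counting error only and the difference between lines was not tested. The comparisons within CT26 share a single control library, so the 8 values are not 8 separate observations of the knockdown.

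In the edgeR quasi-likelihood test of the effect common to both lines, 2 of the 8 were called higher (1.79% of all genes) and none lower (1.10% of all genes). The estimate was 0.34 on the log2 scale for Plk1 (adjusted p = 0.0382) and 0.36 for Aurkb (adjusted p = 0.0399), as averages over unequal lines: Plk1 was at 0.64 in CT26 and 0.02 in MC38, and Aurkb at 0.86 and -0.14, of opposite sign. Both calls sit at the threshold and held in 2 of 8 alternative settings, over which the edgeR, limma and DESeq2 adjusted p ran from 0.0420 to 0.879 for Plk1 and from 0.0356 to 1.00 for Aurkb. Birc5 had an estimate of 0.36 with an edgeR adjusted p of 0.0548, and Cep192 one of 0.30 with 0.112. Incenp, Bora, Tpx2 and Cdca8 had edgeR adjusted p of 0.197, 0.214, 0.249 and 0.544.

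The lines were also compared with each other, first in the control libraries. Of the 9 expressed genes, 3 were past the higher threshold in CT26 over MC38 with shGFP (29.8% of all genes), namely Aurka at 1.63 (1.56 to 1.70), Plk1 at 1.15 (1.07 to 1.23) and Cdca8 at 0.69 (0.62 to 0.77) on the log2 scale. None was past the lower threshold (22.2% of all genes), where Cep192 at -0.65 (-0.74 to -0.56) and Incenp at -0.64 (-0.71 to -0.58) came nearest. Under total-count scaling these 2 genes and Aurkb were past it, Cdca8 was no longer past the higher one, and Tpx2, at 0.06, and Bora, at 0.01, turned negative. That scaling moved the median of all genes from 0.08 to -0.28, so a value near 0 here depends on how the libraries are scaled.

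In the knockdown libraries 6 of the 9 were past the higher threshold in CT26 over MC38 (29.1% of all genes) and none past the lower (22.5% of all genes). Aurka remained higher in CT26, at 1.81, and Plk1 and Cdca8 were at 1.77 and 1.34. Bora, Tpx2 and Aurkb, at 0.84, 0.79 and 0.61, were the others, and under total-count scaling these 3 were within the thresholds. Aurkb was also within them with recovered whole fragments and with FPKM at either pseudocount. The median of the 8 genes other than Aurka was -0.18 between the control libraries and 0.70 between the knockdown libraries. Between the control libraries 4 of the 8 were above 0, and between the knockdown libraries 7 of the 8 were, with Cep192 at -0.12 as the exception. Under total-count scaling these medians were -0.55, with 2 of the 8 above 0, and 0.33, with 6 of the 8 above 0. For Aurkb, Incenp and Birc5 the sign of the difference between lines was negative in control libraries, at -0.39, -0.64 and -0.36, and positive in knockdown libraries, at 0.61, 0.17 and 0.45. The positive value of Incenp turned negative under total-count scaling.

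**Figure D4:**
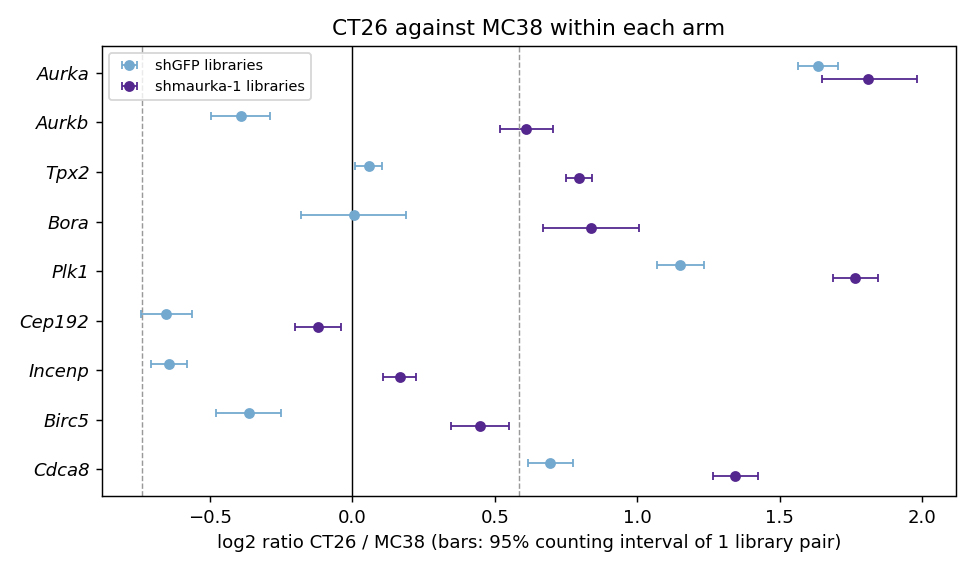
Log2 ratio of CT26 over MC38 for the 9 expressed genes, once between the shGFP libraries and once between the shmaurka-1 libraries, with bars for the exact 95% counting interval. Every gene has a higher ratio between the knockdown libraries, from 1.63 to 1.81 for Aurka and from -0.39 to 0.61 for Aurkb.

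The difference between lines common to both arms was called by the edgeR quasi-likelihood test for 4750 genes higher in CT26 (39.8%) and 4053 lower (34.0%), against 3129 and 5745 under total-count scaling. The genes called higher in CT26 were Aurka at 1.71 (adjusted p = 5.3e-53), Plk1 at 1.46 (4.3e-43), Cdca8 at 1.02 (5.7e-22), Tpx2 at 0.43 (1.1e-05) and Bora at 0.43 (0.0039). Cep192 at -0.38 (edgeR adjusted p = 4.5e-04) and Incenp at -0.24 (0.0221) were called lower. Aurkb at 0.11 and Birc5 at 0.05 had edgeR adjusted p of 0.346 and 0.725, but under total-count scaling they were at -0.26 and -0.32 and were called lower (edgeR adjusted p = 0.0272 and 0.0068). The calls for Tpx2 and Bora were lost with total-count scaling and in DESeq2, that of Incenp was lost in DESeq2, and those of Aurka, Plk1, Cdca8 and Cep192 held in all 8 alternatives with the arm as a block. Without that block the calls for Aurka, Bora, Cep192 and Incenp were lost (edgeR adjusted p = 0.0795, 0.0847, 0.0805 and 0.348). The 2 libraries of a line differ by the hairpin, so this test averages over the unequal differences just given.

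Genes that act with or on these proteins were described from lists drawn up by function, with earlier results of these data known. Each list was counted as a whole. Beside the edgeR calls given for each list, 1.79% of all genes were called higher and 1.10% lower by the same test. By the median in CT26, the closest to the members was the list of 18 genes that recruit Aurora-B or are its substrates. All 18 were above 0 in CT26, with a median log2 fold change of 0.63, and 12 were more than 1.5-fold higher (3.25% of all genes), while in MC38 the median was -0.14, 4 were above 0 and none was past a threshold. Sgo2a, a shugoshin that holds Aurora-B at centromeres, was at 0.90 in CT26 and -0.36 in MC38. Kif20a, the kinesin that moves the passenger complex to the midzone, was at 0.89 and -0.12, and was the single gene of the list called by edgeR (adjusted p = 0.0050). Cdca2 was at 0.80 and -0.22, and the kinetochore gene Ndc80 at 0.79 and -0.01. By the change summed over both lines, the least changed were Usp9x at 0.07 and 0.02 and Rcc2 at 0.05 and 0.23.

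Of 14 partners and substrates of Aurora-A, 5 were more than 1.5-fold higher in CT26 (3.25% of all genes) and none was past a threshold in MC38, with medians of 0.18 and -0.08. The spindle motor Kif11 was at 1.15 in CT26 and 0.07 in MC38, though with only 61 and 125 fragments in the CT26 libraries. The phosphatases that activate Cdk1, Cdc25b and Cdc25c, were at 0.95 and 0.81 in CT26 and at 0.08 and -0.27 in MC38, and the spindle protein Hmmr was at 0.74 and -0.08. Clasp1 at -0.03 and -0.06 and Kif2a at 0.00 and -0.09 changed least by that sum. Cdc25b and Hmmr were called higher by edgeR (adjusted p = 4.5e-05 and 0.0469).

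Of 14 genes for the turnover or dephosphorylation of Aurora-A, 2 were past the higher threshold in CT26 (3.25% of all genes) and none was past a threshold in MC38, with medians of 0.05 and -0.01. These were Cdc20, an activator of the anaphase-promoting complex, at 0.73 in CT26 and 0.20 in MC38, and Ube2c, a ubiquitin-conjugating enzyme of that complex, at 0.59 and 0.05. Both were called by edgeR (adjusted p = 0.00031 and 0.0383). Usp8 and Ppp6r1, a subunit of the phosphatase that acts on Aurora-A bound to Tpx2, lay within 0.06 of no change in both lines.

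Of 17 transcription regulators of late cell cycle genes, only Foxm1 was past a threshold, at 0.60 in CT26 and -0.10 in MC38, a count of 1 beside 3.25% of all genes past the higher threshold in CT26, and the list medians were 0.14 and -0.01. Lin9 at 0.14 and -0.01 and Lin54 at 0.07 and -0.11, subunits of the MuvB complex, changed least by the sum over lines, and edgeR called none of the 17. Of 22 S phase genes, 20 passed the expression filter and none was past a threshold in either line (3.25% of all genes were higher and 2.55% lower in CT26), with medians of 0.11 in CT26 and 0.07 in MC38. Here 3 of the 20 rose by the edgeR test (1.79% of all genes), Cdc6, Rrm1 and Rrm2, at 0.56, 0.26 and 0.55 in CT26 and 0.46, 0.33 and 0.41 in MC38 (adjusted p = 0.0043, 0.0493 and 0.00014). Pcna, the sliding clamp of replication, at 0.03 and -0.02, and Prim1, a primase subunit, at -0.03 and -0.08, were near no change. Of the 8 list genes called by edgeR, Rrm2 held its call in all 8 alternatives with the line as a block, and Cdc25b, Cdc20, Kif20a and Cdc6 in 7, all but DESeq2. Ube2c held it in 2 of the 8 and Hmmr and Rrm1 in 1, and without the block none of these genes was called. No difference between these lists was tested.

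**Figure D5:**
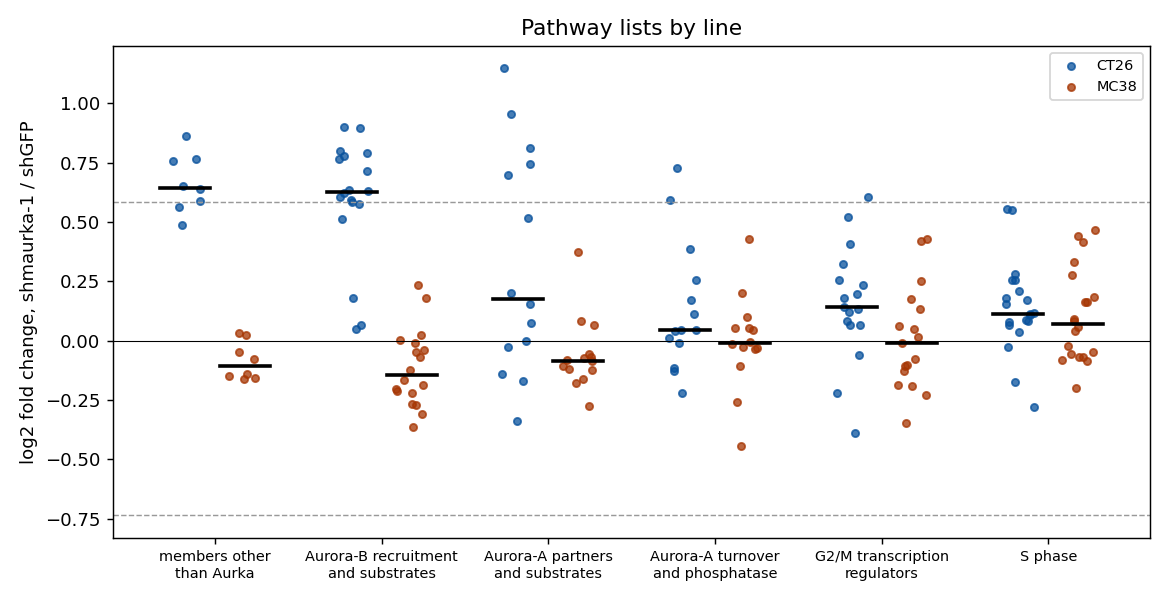
Log2 fold change of shmaurka-1 over shGFP in CT26 and MC38, with 1 point per expressed gene of each list and a bar for the list median. The median of Aurora-B recruitment and substrate genes is 0.63 in CT26 and -0.14 in MC38, and that of S phase genes is 0.11 and 0.07.

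The genes with the most similar pattern were sought among 10035 genes with at least 50 counts on average in each line, by the Euclidean distance between the 4 log2 levels after centring each gene on its mean. No gene came near Aurka: the closest, Gap43, was at a distance of 1.42, and others among the 5 closest were Klf10 at 1.54, Tmem173 at 1.73 and Pdgfc at 1.75. These genes were lower with the hairpin in both lines but less so than Aurka, for example by -0.89 in CT26 and -1.46 in MC38 for Klf10. For Aurkb the closest genes were Nusap1 at 0.098, Depdc1b at 0.115, Birc5 at 0.117, Shcbp1 at 0.160 and C1rl at 0.161. Birc5, the partner of Aurkb in the complex, thus ranked 3 of all genes compared, while Bora, Tpx2 and Incenp ranked 41, 66 and 74. Cep192 ranked 665, and Cdca8 and Plk1, which had higher levels in CT26 than in MC38, ranked 5280 and 7726. The likeness rests on 4 libraries only, and C1rl and Gap43 had as few as 68 and 34 fragments in a library. Gap43, Pdgfc, Nusap1, Shcbp1 and C1rl each share a locus with another gene.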

How the data were processed

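RNA-seq of CT26 and MC38 cells gave 4 libraries, 1 per condition, prepared with a strand-specific kit. The submitters' processing notes name Trimmomatic 0.36, HISAT2, Cufflinks 2.2.1, Cuffdiff and GRCm39. The loci in the files are GRCm38: among genes that share their locus with no other, 99.8% of 20022 overlapped their namesake in RefSeq GRCm38.p6 and 9.23% of 19354 did so in a GRCm39 annotation.

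For every gene the authors deposited an FPKM value and an estimated count. The deposited estimated counts had been scaled per library. Dividing by the step between low values (1.06 and 1.17 for CT26 shGFP and shmaurka-1, 0.885 and 0.901 for MC38) made 97.1% to 97.7% of the nonzero values whole within 0.05. These recovered fragments carried the intervals and the floor. Libraries held 23752269 and 22207768 fragments in CT26 shGFP and shmaurka-1, and 22915543 and 22803054 in MC38. PCR copies were not marked by molecular identifiers, so intervals cover counting error only.

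Fold changes used deposited counts scaled by TMM (edgeR 4.0.16, R 4.3.3) with 1 count added, for genes that averaged 10 counts or more in each line. Thresholds were 1.5-fold and 0.6-fold. edgeR's quasi-likelihood test on counts rounded to whole numbers, with line and arm as terms and Benjamini-Hochberg adjustment at 0.05, gave the common effects. The script was tested on simulated data. Alternatives covered scaling, added count, filter, recovered fragments, FPKM with a pseudocount of 0.1 or 1, limma 3.58.1 and DESeq2 1.42.0. Other steps ran in Python 3.11.15 (pandas 2.3.3, numpy 2.4.6, scipy 1.17.1).

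The members and lists were chosen with earlier results of these data known. Named were all 10 members. Of each list, up to 4 genes past a threshold with the largest change in either line and the 2 with the smallest change summed over lines were named. For Aurka and Aurkb the 5 most similar genes were to be named, of which 1 is not reported here. The S phase genes called by edgeR and the floor comparison with Cdt1 and Gins2 were added after their values were seen. The labels do not say that libraries came from separate cultures.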

Additional observations from a re-analysis of the deposited data

Results flagged for a closer look

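In 6 of the genes the knockdown library was above its control in CT26 and below it in MC38, which is why they are listed here. The log2 fold change in CT26 minus that in MC38 was 1.00 for Aurkb, 0.83 for Bora, 0.81 for Incenp, 0.81 for Birc5, 0.74 for Tpx2 and 0.65 for Cdca8. The difference between lines was not tested, since each condition was 1 library. For Bora and Birc5 the counting interval of the MC38 value included 0 (-0.25 to 0.10 and -0.15 to 0.05), so the opposite sign in MC38 was not detectable at this depth.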

How the results depend on the processing

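Of 636 values recomputed under alternatives, 3 tested effects reversed: under total-count scaling the line effects of Aurkb and Birc5, which were not called in the reported test, became -0.26 and -0.32, and that of Birc5 became -0.036 in DESeq2. A further 24 calls were lost, 24 counts of genes moved by more than 1.5 times or to or from 0, and 26 fold changes or their differences left their counting interval. Sign changes of fold changes within the thresholds were not counted as reversed, such as those of Tpx2 and Bora between the shGFP libraries under total-count scaling. Counts of the 10 genes past the fold thresholds in the knockdown comparison of each line were within 1.5 times of those reported. In CT26 over MC38 the number of these genes past the lower threshold with shGFP went from 0 to 3 under total-count scaling, to 2 with the mirrored threshold of 1/1.5 and to 1 without a filter, and with shmaurka-1 from 0 to 1 without a filter. The gene added without a filter was Aurkc, with 0 against 1 fragment. With shmaurka-1 the number past the higher threshold went from 6 to 3 under total-count scaling.

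For the effect common to both lines, genes called higher went from 213 to 20 in DESeq2 and genes called lower from 131 to 17. The line is the pairing of the libraries, and with no replicate block 0 genes were called in each direction by edgeR, 11 having an unadjusted p under 0.05. Of the 10 genes described, the number called higher went from 2 to 0 under total-count scaling, DESeq2 size factors, no filter, a minimum of 50 counts, recovered fragments, DESeq2 and no block, and the number called lower from 1 to 0 with no block. For the line effect, genes called higher went from 4750 to 3129 under total-count scaling. Members called higher went from 5 to 3 under total-count scaling, in DESeq2 and with no block, and members called lower from 2 to 4, 1 and 0. The cause was not tested. Leaving out 1 library leaves no pair in its line and was not run. Counting depth bears most on Bora, with 437 to 677 fragments, and on Aurkc, under the floor of 3 fragments.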
